A study of Mus musculus with 6 samples.

Results

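The small proline-rich proteins are short structural proteins of squamous epithelia, and 8 of their genes were followed here in mouse esophageal organoids: Sprr1a, Sprr1b, Sprr2a1, Sprr2a3, Sprr2d, Sprr2f, Sprr2h and Sprr3. They were 8 of the 15 rows whose symbol starts with Sprr, among 32285 genes in all, and were selected on their measured values in these libraries, with cells kept where 500 or more genes were detected. Their levels by layer are therefore given as a description, with no test. Which of the 15 rows counted as members did not follow the level alone: Sprr2a1, a member, averaged 6.31 CPM (UMIs of a gene in each 1000000 UMIs of a cell, averaged over cells) over the 6 libraries, below the unselected Sprr2b at 10.98, Sprr2e at 9.52 and Sprr2i at 8.46 CPM.

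Small proline-rich proteins are built of proline-rich repeats between ends rich in glutamine and lysine, which transglutaminases crosslink to loricrin, involucrin and other partners on the inner face of the plasma membrane. The product is the cornified envelope, the tough shell of a terminally differentiated squamous cell. The Sprr1 and Sprr3 genes encode longer members that bridge other envelope proteins, the Sprr2 genes form the large group of short near-copies, and Sprr3 is known for its abundance in internal squamous linings such as the esophagus and the oral mucosa. The genes lie in the epidermal differentiation complex, a cluster of genes used late in squamous differentiation.

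The organoids were grown from esophageal epithelial cells of C57BL6 mice, sorted as integrin-b1 positive (a basal cell surface marker) and DAPI negative (live), and divided by Cyto-ID, a dye of autophagic vesicles, into a Low and a High population. The 2 groups of 3 libraries, Cyto-ID Low and Cyto-ID High, differ by that gate alone as far as the labels say, with no genetic change and no drug in either. After 15 days in Matrigel the organoids were dissociated, and droplet single-cell 3′ RNA sequencing was run on their cells, so each library measured the progeny of the sorted cells and not the sorted cells themselves. The libraries of each group carry the labels F2, M3 and F6, and nothing in the labels says that they came from separate animals, so p-values measure the spread between these libraries, which may be in part technical.

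All 8 genes lie on mouse chromosome 3 (GRCm38, GENCODE vM21 annotation) between 92215799 and 92485895, a span of 270.097 kb, with 5 on the plus strand and 3 on the minus strand. The 5 Sprr2 members come first, followed by Sprr1b (92436809 to 92438789), Sprr3 (92456502 to 92458720) and Sprr1a (92483952 to 92485895), all of which read in the opposite direction. Sprr2a1 and Sprr2a3 are near-copies: none of the 310 windows of 91 bases (the length of the cDNA read) in the last 400 bases of the Sprr2a1 transcript was unique to it, and 50.3% of those of Sprr2a3 were. The shared windows recurred in the other of the 2 or in the unselected Sprr2a2. How reads shared between such copies were counted is not given in the sources used here. The levels of Sprr2a1 and Sprr2a3 are therefore uncertain, relative to each other and to the other members. For each of the other 6 members 100% of such windows were unique among the Sprr transcripts.

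The stretch of 250 bases upstream of the annotated start is shown for 5 members, because these 5 fall into 3 different patterns over the cell layers described next: Sprr1b, which was highest in 1 suprabasal cluster, Sprr1a, Sprr2d and Sprr2f, which were highest in 1 superficial cluster, and Sprr2a3, which was highest in the other. The sequences are from RefSeq on GRCm38.p6, in which all 8 members were matched, and lie at chr3:92485882-92486131 (minus strand, Sprr1a), chr3:92438780-92439029 (minus, Sprr1b), chr3:92338890-92339139 (plus, Sprr2d), chr3:92364937-92365186 (plus, Sprr2f) and chr3:92285054-92285303 (plus, Sprr2a3). They are written 5′ to 3′ on the gene's strand, ending at the base before the start, and capitals mark matches on either strand to the motifs named after them.
Sprr1a: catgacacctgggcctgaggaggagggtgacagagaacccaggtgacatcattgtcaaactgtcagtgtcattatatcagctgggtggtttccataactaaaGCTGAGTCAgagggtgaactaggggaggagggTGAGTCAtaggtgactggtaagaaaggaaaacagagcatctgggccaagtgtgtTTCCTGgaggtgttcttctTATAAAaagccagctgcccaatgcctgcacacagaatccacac
Sprr1b: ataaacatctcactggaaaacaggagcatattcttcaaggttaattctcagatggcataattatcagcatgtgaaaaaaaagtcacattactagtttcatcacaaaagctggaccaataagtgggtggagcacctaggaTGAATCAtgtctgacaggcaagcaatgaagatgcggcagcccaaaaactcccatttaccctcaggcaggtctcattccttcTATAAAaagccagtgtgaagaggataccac
Sprr2d: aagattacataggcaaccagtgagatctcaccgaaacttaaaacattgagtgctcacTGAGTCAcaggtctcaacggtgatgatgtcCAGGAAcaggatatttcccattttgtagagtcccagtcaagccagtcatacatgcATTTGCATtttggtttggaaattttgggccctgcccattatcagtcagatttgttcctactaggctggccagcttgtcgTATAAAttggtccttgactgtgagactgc
Sprr2f: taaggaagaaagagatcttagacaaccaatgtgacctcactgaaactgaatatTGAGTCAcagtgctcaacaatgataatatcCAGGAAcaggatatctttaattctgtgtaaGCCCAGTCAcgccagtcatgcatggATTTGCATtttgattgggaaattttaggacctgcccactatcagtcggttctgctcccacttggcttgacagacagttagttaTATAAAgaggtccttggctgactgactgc
Sprr2a3: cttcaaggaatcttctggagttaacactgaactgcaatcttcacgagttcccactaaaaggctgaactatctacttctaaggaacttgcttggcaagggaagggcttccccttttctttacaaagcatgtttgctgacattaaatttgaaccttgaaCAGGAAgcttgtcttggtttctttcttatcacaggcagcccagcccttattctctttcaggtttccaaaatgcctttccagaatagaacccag
The motif of AP-1, the Fos and Jun dimer, was searched as TGANTCA and was found upstream of 5 of the 8 members, against 6.75% of 32851 annotated mouse windows of the same length. It lay at positions -146 to -140 and -116 to -110 from the start of Sprr1a and at -111 to -105 of Sprr1b, but further out in the Sprr2 genes, at -193 to -187 of Sprr2d and -197 to -191 of Sprr2f. The octamer ATTTGCAT, bound by POU factors, was found upstream of Sprr2d, Sprr2f and Sprr2h, and 1.6% of all windows held it. The ETS core CAGGAA was found in 6 members and in 25.7% of all windows, and the TATA box TATAAA in 6 members and in 12.4%. The antioxidant response core TGACNNNGC was found upstream of Sprr1a, where it overlaps the AP-1 match at -146, and of Sprr2f, against 10.2% of all windows. The Sprr2a3 window held only the ETS core, and shared a run of 222 identical bases with that of Sprr2a1. This window ends at 92285303, before the GENCODE start of Sprr2a3 at 92285417. Bases next to the GENCODE start were not searched, so the lack of other motifs holds for the RefSeq window only. A match describes the letters in the window and is not evidence of binding.

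The files held 26808 cell barcodes, of which 25154 passed the limit of 500 genes, 2667 to 5617 per library. The median count of unique molecular identifiers (UMIs, each marking 1 captured transcript) per cell ranged from 2716 to 7789 in the Low and from 1940.5 to 10038 in the High libraries. Within the label pairs the High library was the deeper one for F2 only. Pairs of libraries shared 0 to 8 cell barcodes. All 8 fixed basal and all 8 proliferation markers reached 5 CPM, as did 7 of 8 suprabasal and 5 of 8 superficial markers, while the superficial markers Krt78, Flg and Crnn did not. Of the non-epithelial lists that of fibroblasts reached the highest sum, 0.271 to 0.966 CPM in Low and 0.435 to 4.95 CPM in High libraries, and no marker of these lists averaged above the 0.531 CPM of Dcn over the 6 libraries. Cells were clustered with every Sprr row removed, and clusters were placed in layers from the fixed markers: 3 clusters were basal-like, 2 were proliferating-like, the Calm4 cluster alone was suprabasal-like, 2 were superficial-like, and 2 were left unnamed. Each cluster is called by its leading gene. The names are a rebuild, since no cell annotation was used.

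Over all cells the members ranged in mean level from 6.31 CPM for Sprr2a1, whose count is uncertain as said above, and 25.7 CPM for Sprr2h up to 1452 CPM for Sprr2d. A UMI stands for 1 transcript whatever its length, so levels are compared without division by length. Sprr2d had the highest mean, 1452 ± 674 CPM (SD, n = 6 libraries), within the spread of Sprr2f with 849 ± 928 CPM, which was the higher of the pair in Low F2 (2665 against 2497 CPM). Sprr2a3 with 709 ± 243 and Sprr1a with 611 ± 197 CPM came next and did not differ from Sprr2f or each other beyond their spread. The place of Sprr2a3 in this order is uncertain, as its count is. Sprr1b (79.3 ± 78.8) and Sprr3 (53.1 ± 26.9) followed, again within their spread, then Sprr2h (25.7 ± 7.72) and Sprr2a1 (6.31 ± 3.13 CPM). Sprr2d, Sprr2f, Sprr2a3 and Sprr1a therefore made up most of the family's transcripts in every library, and no UMI of the unselected Sprr4 was counted in 25154 cells, which allows a share of up to 0.0119% of cells with a UMI.

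By layer, 7 of the 8 members were higher in superficial-like than in basal-like cells in all 6 libraries, and Sprr1b was the exception. The 8 members together held 384 to 662 CPM in basal-like and 304 to 521 CPM in proliferating-like cells, but 2027 to 3656 CPM in suprabasal-like and 8722 to 17722 CPM in superficial-like cells. From basal-like to superficial-like cells the median ratio of the CPM levels was 53.6-fold for Sprr2f (range 20.5 to 89.8), and, with overlapping ranges, 39.2-fold for Sprr2d (27.6 to 49.1), 33.2-fold for Sprr3 (25.4 to 82.8) and 23.9-fold for Sprr1a (16.8 to 50.0). Sprr2a3 was 11.8-fold higher (8.04 to 18.6), over a basal-like level of 167 ± 53.5 CPM that was within the spread of Sprr2d at 136 ± 54.1 CPM (SD, n = 6). Sprr1b was 20.8-fold (14.6 to 65.9) higher in suprabasal-like than in basal-like cells, but 1.36-fold (0.465 to 3.11) in superficial-like cells, where its level was a median of 0.0565 of the suprabasal-like one. Sprr2h also had its higher median in the suprabasal-like layer, 13.1-fold against 9.65-fold. Sprr1a and Sprr3 were 13.2-fold (3.70 to 26.9) and 32.2-fold (21.1 to 94.7) above the basal-like level in suprabasal-like cells. The layer names do not give an order in time, which was not tested. Of the superficial markers, Cnfn had 274 CPM in suprabasal-like and 268 in superficial-like cells, and Lor 21.0 and 7.27. Crct1 went the other way, with 614 and 712 CPM. Of the remaining superficial markers at 5 CPM or more, Tgm3 was among the leading genes of the superficial-like Il33 cluster. Psca was among those of the superficial-like Tspan1 cluster.

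**Figure D1:**
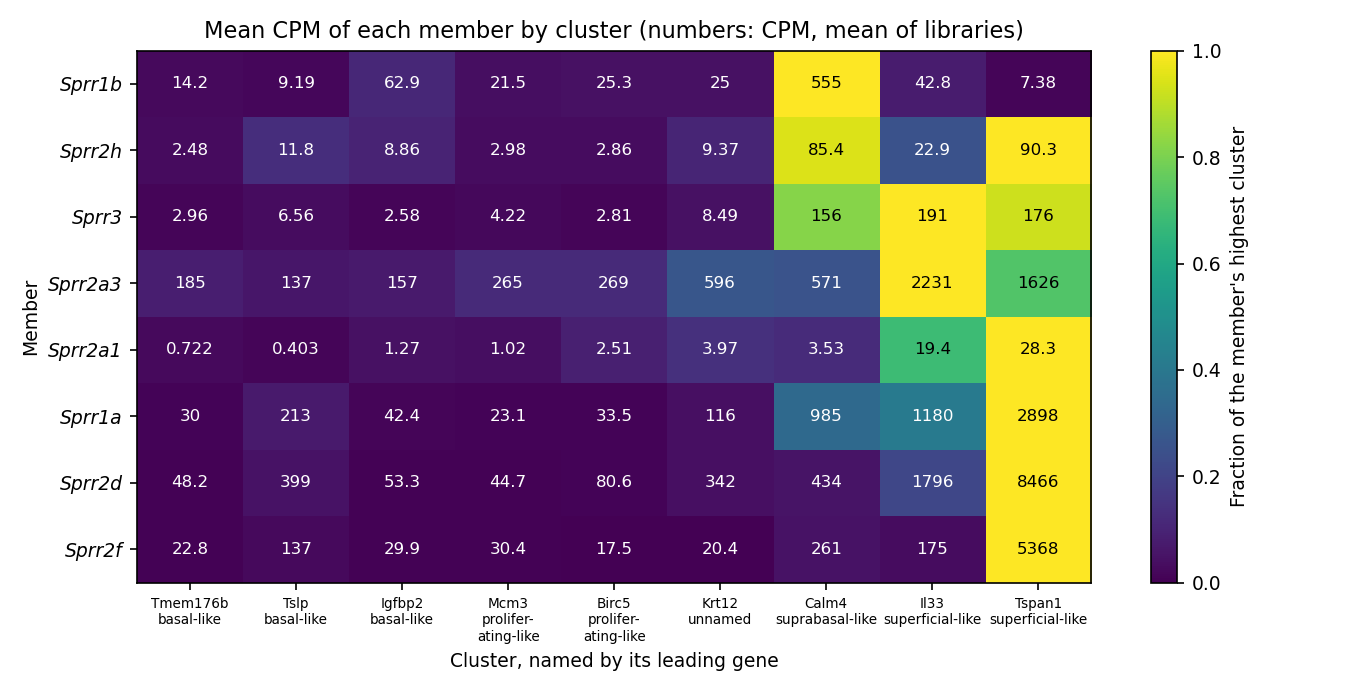
Mean level of each member (rows) in 9 clusters (columns, named by leading gene and layer), as the mean CPM over 6 libraries printed in each cell, with colour as the fraction of the member's highest cluster. In these means Sprr1b peaks in the Calm4 cluster, Sprr2a3 and Sprr3 in the Il33 cluster, and the other 5 in the Tspan1 cluster. Some peaks lie within the spread between libraries (SD, n = 6). Sprr2h has 90.3 ± 40.1 CPM in the Tspan1 and 85.4 ± 18.4 in the Calm4 cluster. Sprr3 has 191 ± 146 in the Il33 and 176 ± 177 in the Tspan1 cluster, and Sprr2a1 19.4 ± 15.8 and 28.3 ± 28.1. The Ifit3b cluster, with enough cells in 3 libraries only, is left out.

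The 2 superficial-like clusters held different members. One was led by Tspan1, a tetraspanin, and the other by Il33, an alarmin cytokine. Sprr2f reached 5368 ± 3771 CPM (SD, n = 6) in the Tspan1 cluster and 175 ± 130 in the Il33 cluster, a median ratio of 29.1 (range 17 to 55.2). In 6 of 6 libraries Sprr2d (median ratio 4.55), Sprr2h (3.6) and Sprr1a (2.28) were also higher in the Tspan1 cluster. Sprr2a3 went the other way in 6 of 6 libraries, with 1626 ± 498 CPM in the Tspan1 cluster and 2231 ± 672 in the Il33 cluster (median ratio 0.744), and so did Sprr1b (0.245). Sprr3 showed no fixed order, being higher in the Tspan1 cluster in 2 of 6 libraries. These are levels within clusters of the same cells and carry no test.

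The Sprr1 pair also differed by cluster. Sprr1b had 555 ± 407 CPM in the Calm4 cluster, its next highest level of 62.9 ± 54.7 in the basal-like Igfbp2 cluster, and 7.38 ± 5.16 in the Tspan1 cluster, within the spread of its 9.19 ± 6.67 CPM in the Tslp cluster. Sprr1a had 985 ± 297, 42.4 ± 21.9 and 2898 ± 1108 CPM in the Calm4, Igfbp2 and Tspan1 clusters. The Sprr1b level in the Igfbp2 cluster was within the spread of its 42.8 ± 46.6 CPM in the Il33 cluster. Of the summed mean CPM of the pair, Sprr1b held 5.89 to 70.2% in the Calm4 cluster, 19.2 to 90% in the Igfbp2 cluster and 0.107 to 0.668% in the Tspan1 cluster. Calm4 is a calmodulin-like gene of the differentiating epidermis, and Igfbp2 a secreted binding protein of insulin-like growth factors. A median of 73.1% of a library's Sprr1b UMIs came from the Calm4 cluster (19.6 to 82.7%), while 90.2% of Sprr2f UMIs came from the Tspan1 cluster (54.7 to 94.7%).

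**Figure D2:**
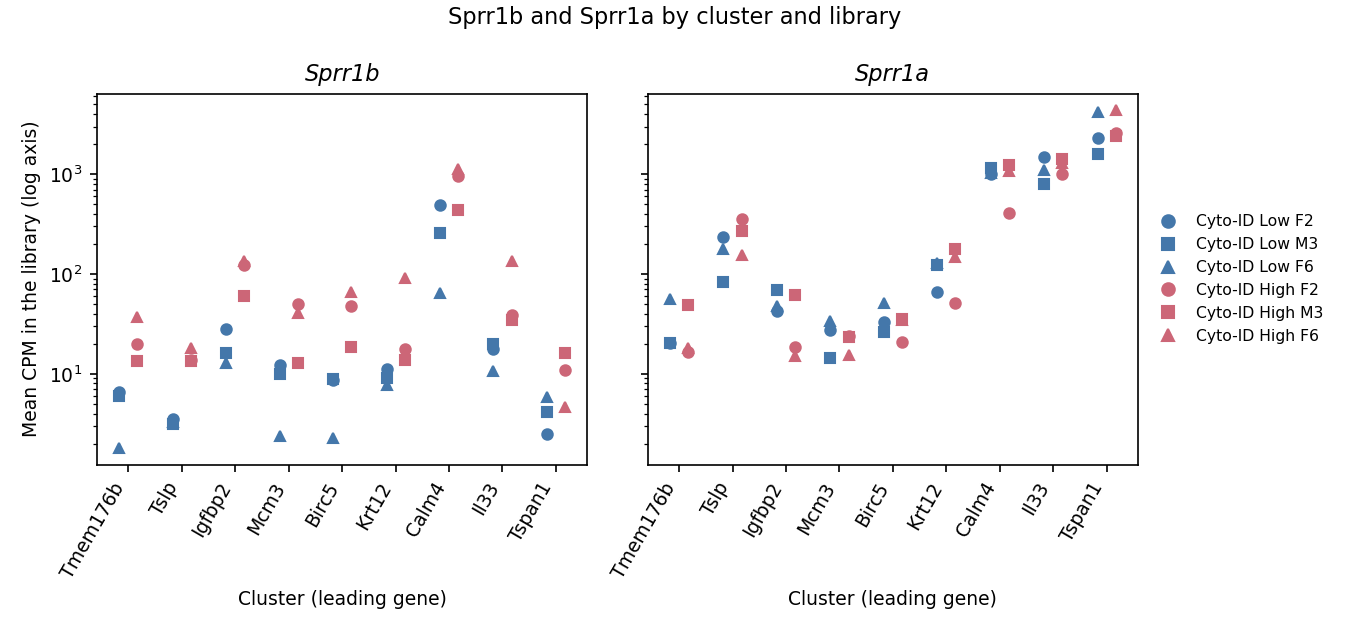
Levels of Sprr1a and Sprr1b in CPM on a log axis, by cluster and library, with Low and High libraries in separate colours. In the mean over libraries Sprr1a is highest in the Tspan1 cluster, where Sprr1b is low (7.38 CPM), and Sprr1b is highest in the Calm4 cluster (555 CPM).

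The make-up of the family's transcript pool changed with the layer. Sprr2a3 held 52.5 to 73.2% of the 8 members' UMIs in proliferating-like cells and 10.7 to 27.7% in superficial-like cells, ranges that do not overlap. The size of its share is uncertain, as its count is. In superficial-like cells Sprr2d held the most in the mean over libraries, 41.97 ± 5.64% (SD, n = 6), with Sprr2f at 19.9 ± 11.5% and Sprr2a3 at 18.9 ± 7.28%, although in Low F2 Sprr2f held 38.3% and Sprr2d 37.9%. In suprabasal-like cells Sprr1a held 34.9 ± 9.69% and Sprr1b 19.985 ± 16.5%, against 0.339 ± 0.444% for Sprr1b in superficial-like cells. The members' UMIs were thus not in 1 fixed ratio across the layers of a library. Free RNA in the droplets was not measured here, and its part in the low basal-like and proliferating-like levels was not tested.

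**Figure D3:**
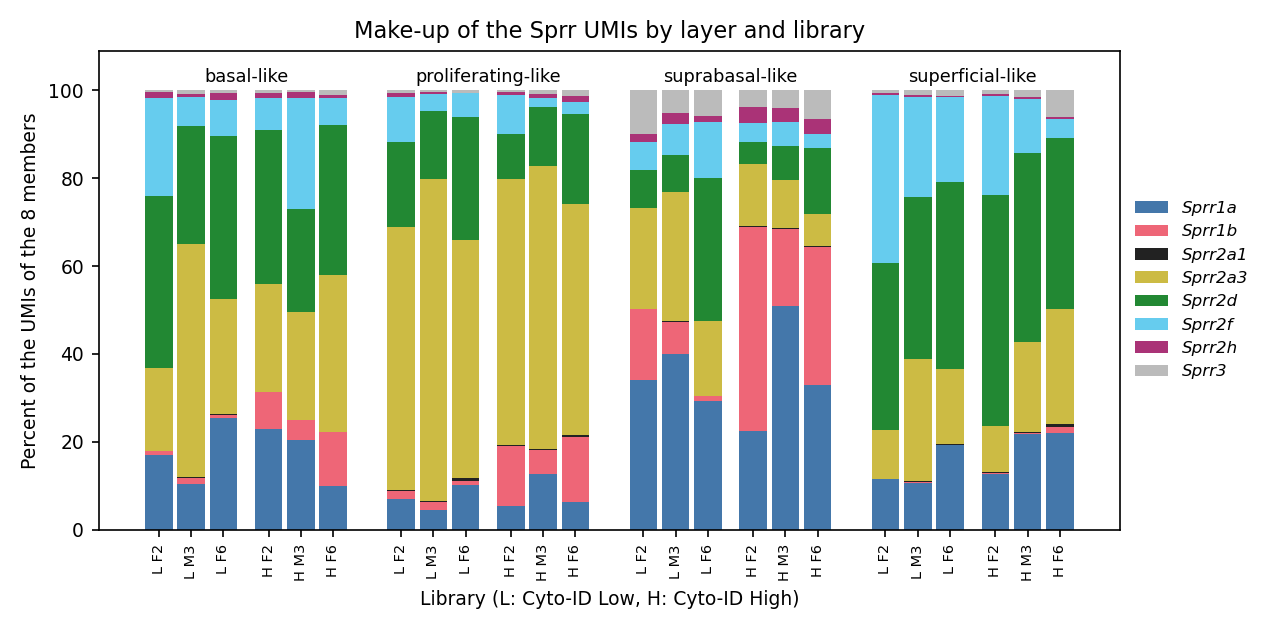
Percent of the 8 members' UMIs held by each member, stacked by library within each layer. Sprr2a3 holds over 50% in the proliferating-like cells of every library, and Sprr2d holds 37.0% or more in the superficial-like cells of every library.

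To compare single cells across depths, 24807 cells were thinned to 1000 UMIs each and 347 shallower cells were left out. At that depth a median of 77.2% of basal-like cells held no UMI of any member and 3.15% held UMIs of 2 or more members, against 9.83% and 66.7% of superficial-like cells. In suprabasal-like cells 36.5% held 2 or more (27.3 to 43.8%). Sprr2d was detected in 62.8 ± 6.58% of superficial-like and 5.68 ± 2.00% of basal-like cells (SD, n = 6), a layer expected to be low in it. Before thinning those shares were 78.0% and 15.9%, and the libraries' median depths were 1985 to 10139 UMIs per superficial-like and 1632 to 8942 per basal-like cell. At this depth UMIs of Sprr1a and Sprr1b were seen both in the same and in different cells. A thinned cell with no UMI of a member may still have held its transcripts, so these shares do not show separate cells. In suprabasal-like cells 5.08 to 30.1% held Sprr1b without Sprr1a, 6.87 to 25.4% held Sprr1a without Sprr1b and 1.69 to 23.6% held both, and the levels of the pair correlated at a median r of 0.307 across suprabasal-like cells (0.135 to 0.478 over the 6 libraries), while in superficial-like cells 38.1 to 52.8% held Sprr1a alone and at most 1.2% held Sprr1b alone. Transcripts of single members were concentrated in few cells: 50% of the thinned UMIs lay in 0.297 to 3.06% of a library's cells for Sprr2f and in 3.15 to 5.69% for Sprr2a3. For Sprr1b they lay in 0.421 to 0.628% of cells in the Low and in 1.73 to 2.99% in the High libraries. Such a share cannot exceed that of cells with any Sprr1b UMI, 0.804 to 1.81% in Low and 6.43 to 11.8% in High. It therefore follows detection and does not show that Sprr1b was more concentrated in Low.

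**Figure D4:**
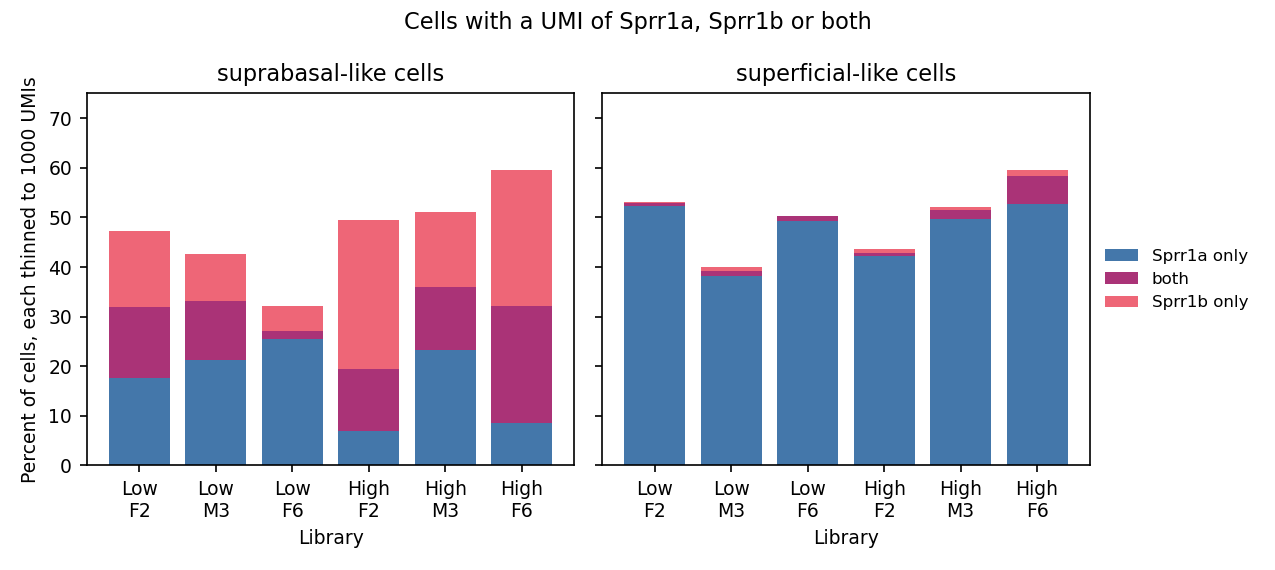
Percent of cells, thinned to 1000 UMIs, with a UMI of Sprr1a only, of Sprr1b only or of both, as stacked bars by library, for the suprabasal-like and the superficial-like layer. Sprr1b-only cells reach 30.1% in suprabasal-like cells and stay at or under 1.2% in superficial-like cells.

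The 24 means of 4 layers in 6 libraries describe how alike the members were. These points share libraries and depth, so the correlations of log2(CPM + 1) are descriptions with no p. Among the other 7 members Pearson's r ranged from 0.483 to 0.947, the highest being Sprr2d with Sprr2f and next to it Sprr1a with Sprr3 at 0.943, whereas Sprr1b had r of -0.00395 to 0.609 with them. Among 8830 genes outside the family, Sprr1b was most like Dsg1b, a desmosomal cadherin (r = 0.97), Calm4 (0.96) and Krtdap, a secreted peptide of differentiating keratinocytes (0.94). Sprr3 was most like the cornified envelope genes Cnfn (0.98) and Crct1 (0.97) and then Vsig10l (0.96). For Sprr1a they were Evpl, the envelope scaffold envoplakin (0.97), Glrx, a glutaredoxin (0.97), and Scnn1a, a sodium channel subunit (0.96). Sprr2f was most like Elf3, an epithelial ETS factor (0.97), Oasl1 (0.96) and Rab11fip1 (0.96). For Sprr2d they were Arhgap27os1 (0.98), the amino acid transporter Slc6a14 (0.97) and Gsto1 (0.96), and for Sprr2a3 Il33 (0.95), Adam28 (0.94) and Rac1 (0.94). Sprr2h was most like Tmem45b (0.94), Klk11 (0.92) and Tmprss11b (0.92), and Sprr2a1 was most like Smdt1 (0.90), Ggh (0.86) and Fam83e (0.85). No gene recurred among the members. Krtdap, Cnfn and Crct1 are markers from which the layers were named.

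The Cyto-ID comparison asks whether organoids founded by High cells differ from those founded by Low cells. Sprr1b was the 1 member that rose past the threshold in High libraries, and it did so both in the whole population and in the basal-like layer. Sprr2a3 and Sprr2f had lower means in High libraries but did not pass the test. The test was limma on log2 of the mean CPM per library with a pseudocount of 1, adjusted by Benjamini-Hochberg over all genes, at a threshold of 0.05. It was unpaired, with the group alone in the fit. In a whole population, more cells of a type and more RNA per cell cannot be told apart.

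Over all cells Sprr1b measured 21.0 CPM in Low F2, 20.6 in Low M3 and 6.89 in Low F6, against 132 in High F2, 89.6 in High M3 and 206 CPM in High F6. Every High library lay above every Low library, and the High library was higher in 3 of 3 label pairs, by 6.29-fold for F2, 4.36-fold for M3 and 29.9-fold for F6. The means were 16.1 ± 8.02 and 142 ± 58.9 CPM (SD, n = 3 each), a difference of 3.24 ± 0.42 (SE) on the log2 scale (limma adjusted p = 0.029). Of 11645 genes tested, 0.163% were called, all of them higher in High. The call was lost without Low F6 (adjusted p = 0.136), High F2 (0.0915) or High F6 (0.138), with log2 differences of 2.79, 3.35 and 2.88. It was also lost without the Calm4 cluster, where the log2 difference was 2.43 ± 0.36 (limma adjusted p = 0.070). That cluster was 2.57, 4.68 and 2.21% of kept cells in Low F2, M3 and F6 and 9.69, 15.6 and 12.7% in High. Krtdap, one of the genes that mark it, itself differed between the groups, so these shares are given beside the Sprr1b values and not as a result, and their part in the difference was not tested.

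**Figure D5:**
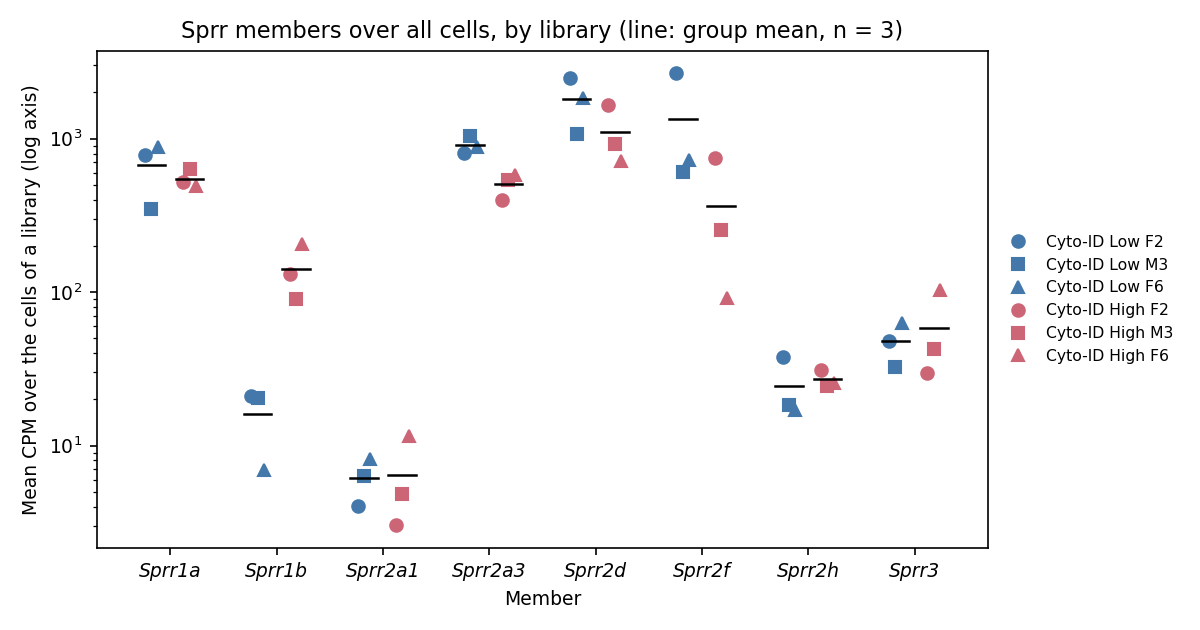
Level of each member over all cells in CPM on a log axis, 1 point per library, with lines at the group means. All 3 High points of Sprr1b lie above its 3 Low points, all 3 High points of Sprr2a3 lie below, and the groups of the other 6 members overlap.

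In basal-like cells Sprr1b measured 7.5, 6.47 and 2.83 CPM in Low F2, M3 and F6, and 50.6, 30.3 and 65.7 CPM in High F2, M3 and F6. The groups again did not overlap, at levels 10 or more times below those of suprabasal-like cells. The difference was 3.09 ± 0.36 (SE) on the log2 scale (limma adjusted p = 0.0089), with 0.275% of 11622 genes called. The basal-like layer was made up differently in the groups: the Igfbp2 cluster, its highest in Sprr1b, was 4.23, 4.97 and 2.14% of kept cells in Low F2, M3 and F6 and 13.8, 13.2 and 12.8% in High. Within each of the 3 basal-like clusters every High library was above every Low library in Sprr1b, with 12.8 to 28.2 against 60.3 to 136 CPM in the Igfbp2, 1.82 to 6.54 against 13.5 to 37.5 CPM in the Tmem176b and 3.11 to 3.53 against 13.3 to 18.3 CPM in the Tslp cluster. The limma difference rested on 9 to 77 Sprr1b UMIs per Low and 107 to 931 per High library. In Low F6 the values of the 3 clusters together rested on 9 Sprr1b UMIs, and its Igfbp2 cluster had 57 cells. The share of all genes without overlap was not counted within these clusters. What part the make-up of the layer had in the difference was not tested. The call was lost without Low F6 (adjusted p = 0.0794) or High F2 (0.0617), at log2 differences of 2.79 and 3.12. Thinned to 1000 UMIs, 0.881, 0.354 and 0.48% of basal-like cells held Sprr1b in Low F2, M3 and F6 and 4.33, 2.94 and 5.71% in High, groups that do not overlap (exact two-sided permutation p = 0.10, the smallest that 3 against 3 can give). Of the suprabasal markers, 1 of 7 tested rose in these cells, Krtdap, from a mean of 19.0 to 543 CPM. The other 6 did not pass: the mean levels in Low and High were 19.4 and 38.1 CPM for Sbsn, 5.4 and 9.81 for Grhl3, 34.7 and 53.9 for Krt4, 5.66 and 7.47 for Notch3, 45.3 and 48.1 for Tgm1 and 565 and 631 for Krt13, and the median log2 difference of the 7 was 0.63. The summed level of the 8 was 510 to 907 CPM in Low and 1052 to 1678 in High, with none at 0 in every library, and its part in the Sprr1b difference was not tested. Free RNA was not measured and no doublet caller was run. What part either had in the Sprr1b difference, for example from the Calm4 cluster, was not tested.

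In the other layers Sprr1b was higher in each High library than in its label partner, but did not pass the threshold. In proliferating-like cells it measured 10.1, 9.23 and 2.31 CPM in Low F2, M3 and F6 and 48.5, 16.7 and 57.4 in High, with no overlap (log2 difference 2.53 ± 0.52, limma adjusted p = 0.139, with 0.197% of genes called). The proliferating-like values rested on 44, 52 and 3 Sprr1b UMIs in Low F2, M3 and F6 and on 477, 40 and 189 in High. Of the suprabasal markers 1 of 7 tested rose in these cells, Krtdap, from a mean of 41.7 to 628 CPM (limma adjusted p = 0.016). The summed level of the 8 was 732 to 1369 CPM in Low and 1489 to 1728 in High, and its part in the Sprr1b difference was not tested. In suprabasal-like cells, where Sprr1b was most abundant, the groups overlapped: 494, 255 and 63.8 CPM in Low F2, M3 and F6 and 958, 442 and 1118 CPM in High (2.20 ± 0.61, limma adjusted p = 0.537, with 0.0188% called). The Low values came from 91, 263 and 59 cells, and the difference was 1.37 without Low F6 and 2.84 without Low F2. In superficial-like cells it measured 8.70, 13.9 and 8.80 CPM in Low and 23.5, 25.9 and 101.97 CPM in High, without overlap (1.84 ± 0.50, limma adjusted p = 1, with 0.00927% called), and the difference was 1.18 without High F6. The superficial-like minus basal-like gradient of Sprr1b differed between the groups by -1.25 ± 0.43, which did not pass (limma adjusted p = 0.601), and 0% of 10406 genes passed that test, with 818 at an unadjusted p under 0.05. Leaving out 1 library gave -0.83 (High F2) to -1.6 (High F6) for this gradient of Sprr1b. A difference between layers in the Cyto-ID effect on Sprr1b was therefore not shown. The part of free RNA or doublets in the Sprr1b differences of these layers was not tested.

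Sprr2a3 over all cells measured 809, 1040 and 889 CPM in Low F2, M3 and F6 and 398, 537 and 582 CPM in High. All 3 High libraries lay below all 3 Low libraries, by 1.53-fold to 2.03-fold within label pairs, and the log2 difference of -0.75 ± 0.30 did not pass (limma adjusted p = 0.609). Leaving out 1 library gave -0.49 (High F2) to -0.91 (High F6). In suprabasal-like cells the values were 975, 924 and 598 CPM in Low and 318, 308 and 302 CPM in High. That was the widest gap between the groups for this gene in any layer, at a log2 difference of -1.14 ± 0.28 (limma adjusted p = 0.365). In superficial-like cells, where it was most abundant, the groups overlapped at -0.44 ± 0.43 (limma adjusted p = 1), with -0.06 without High F2 and -0.68 without High F6.

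Sprr2f over all cells measured 2665, 606 and 731 CPM in Low F2, M3 and F6 and 746, 253 and 92.1 CPM in High. Each High library was lower than its label partner, by 3.57-fold, 2.39-fold and 7.94-fold, but High F2 lay above both Low M3 and Low F6, so the groups overlapped. The log2 difference was -1.91 ± 0.72 (limma adjusted p = 0.581). Without the Tspan1 cluster it was -0.67 (adjusted p = 0.747). In superficial-like cells the values were 7288, 2459 and 1965 CPM in Low and 3110, 1015 and 434 CPM in High, lower in 3 of 3 label pairs (-1.58 ± 0.69, limma adjusted p = 1), with -0.89 without High F6 and -2.23 without High F2. In suprabasal-like cells they were 257, 215 and 715 CPM in Low and 91.4, 176 and 108 CPM in High, with no overlap (-1.24 ± 0.44, limma adjusted p = 0.646). There the difference was -0.72 without Low F6 and -1.58 without High M3. In proliferating-like cells the difference was -0.97 ± 0.45 (limma adjusted p = 0.635), with -0.55 without High M3 and -1.38 without High F2. In basal-like cells it was -0.57 ± 0.52 (limma adjusted p = 0.849), and there High M3 was 1.43-fold higher than Low M3. The gradient difference of -1.01 ± 0.69 (limma adjusted p = 0.747) ran from -0.14 at resolution 0.3 to -2.37 with cells of 1000 or more genes, and was -1.71 without High F2. Leaving out 1 library gave -1.22 (High F6) to -2.57 (High F2) over all cells, and -1.27 without Low F2. None of these passed.

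The other 5 members had overlapping groups over all cells, and none passed the test. Sprr1a measured 781, 350 and 886 CPM in Low F2, M3 and F6 and 523, 633 and 492 CPM in High, with a log2 difference of -0.08 ± 0.39 (limma adjusted p = 0.975) whose sign turned without Low F2 (0.05), Low F6 (0.21) or High F2 (0.05). Sprr2d, the most abundant, measured 2497, 1065 and 1852 CPM in Low and 1660, 922 and 714 in High, lower in 3 of 3 label pairs (-0.61 ± 0.40, limma adjusted p = 0.721). Its difference was -0.36 without Low F2 and -0.96 without Low M3. Sprr2h ranged from 17 to 37.5 CPM in Low and from 24.6 to 31.1 in High (0.34 ± 0.27, limma adjusted p = 0.760), with 0.66 without Low F2 and 0.18 without Low F6. Sprr3 ranged from 32.7 to 62.9 CPM in Low and from 29.7 to 102.45 in High (0.24 ± 0.48, limma adjusted p = 0.921), and Sprr2a1 from 4.04 to 8.12 and from 3.02 to 11.5 CPM (0.04 ± 0.45, limma adjusted p = 0.991). The sign turned as well for Sprr3 without High F6 (-0.31) or Low M3 (-0.02), for Sprr2a1 without High F6 (-0.47) or Low F2 (-0.22) and for Sprr2h without the Calm4 cluster (-0.26).

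The members whose groups did not overlap were counted beside the same over all genes. Over all cells 1 of 8 members, Sprr1b, had all 3 High libraries above all 3 Low libraries, against 4.48% of genes tested, and 1, Sprr2a3, had them below, against 8.13%. In basal-like cells, where 7 members passed the filter on low values, 1 lay above and 0 below, against 3.49% and 9.85% of genes. In proliferating-like cells these were 1 and 0 of 8 members, against 3.27% and 12.2%. In suprabasal-like cells 0 lay above, against 3.23%, and 2 lay below, Sprr2a3 and Sprr2f, against 12.5%. In superficial-like cells 1 lay above and 0 below, against 3.19% and 2.81%. In each layer but the suprabasal-like one the member above was Sprr1b. Since the members were chosen with these values known, the counts describe them and support nothing further.

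The shares of the family pool were compared over libraries. Sprr1a held 14.5 ± 4.28% in Low and 20.9 ± 6.24% in High (SD, n = 3 each), with overlapping groups (exact two-sided permutation p = 0.20, adjusted 0.40 over the 8 members). Sprr1b held 0.394, 0.611 and 0.107% of the 8 members' UMIs in Low F2, M3 and F6 and 5.43, 3.62 and 10.3% in High, with no overlap (exact permutation p = 0.10, adjusted 0.40). Sprr2a3 held 20.7 ± 9.69% in Low and 19.5 ± 5.56% in High (exact permutation p = 1). Sprr2f held 36.6, 19.9 and 18.7% in Low and 19.1, 11.2 and 3.88% in High, which overlap (exact permutation p = 0.20, adjusted 0.40). Sprr2h held 0.343 to 0.510% in Low and 0.841 to 1.26% in High (exact permutation p = 0.10, adjusted 0.40). The share of thinned cells with a Sprr1b UMI was 1.5, 1.81 and 0.804% in Low F2, M3 and F6 and 7.20, 6.43 and 11.8% in High (exact permutation p = 0.10, adjusted 0.267), with 95% Wilson half-widths of at most 1.82 points. The Sprr2d share was 32.5, 22.8 and 34.1% in Low and 19.6, 18.2 and 15.7% in High, and that of Sprr2a3 was 26.9, 35.2 and 31.3% in Low and 17.1, 22.7 and 23.9% in High, both without overlap (exact permutation p = 0.10, adjusted 0.267 for each). With 3 libraries against 3, no share could pass 0.05.

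Among genes that work with the family, few differed by Cyto-ID over all cells. Of 49 neighbours in the epidermal differentiation complex 23 were tested, and 0 were called in either direction by limma, with a median log2 difference of 0.12 against 0.00 for all genes. The neighbours with the largest differences were Lce3c (1.32), a late cornified envelope gene, and Ivl (-1.09), which encodes involucrin. Of 23 envelope partners and crosslinkers outside the complex 21 were tested, and 1 rose, where 0.163% of all genes were called: Krtdap, by 4.27 ± 0.43 on the log2 scale (limma adjusted p = 0.0080). In basal-like cells, with 0.275% of all genes called, 3 of the 18 tested rose, Krtdap (5.08, adjusted p = 0.0047), the cystatin Stfa2 (3.17, adjusted p = 0.037) and the transglutaminase Tgm3 (1.88, adjusted p = 0.043), all by limma. Of 28 transcription factors reported at Sprr promoters or in squamous differentiation 26 were tested and 0 passed over all cells or in basal-like cells. The largest differences over all cells were those of Ovol1 (1.10, adjusted p = 0.218) and Elf3 (-0.66, adjusted p = 0.673). Of 14 targets of the oxidative stress factor NRF2, 0 passed over all cells (median 0.31), where Gstm1, a glutathione transferase, had 2.15 (limma adjusted p = 0.060). In basal-like cells 1 of 14 rose, Gstm1, by 2.09 ± 0.34 (limma adjusted p = 0.043). Gstm1 was among the leading genes of the basal-like Igfbp2 cluster, whose share of kept cells differed between the groups as given above. The part of that share in the Gstm1 difference was not tested.

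The 7 rows not selected were low in these organoids, with means over all cells between 0 for Sprr4 and 10.98 CPM for Sprr2b. All windows of Sprr2a2 recurred in Sprr2a1 or Sprr2a3, so its level is uncertain too. Unlike the abundant Sprr2 genes, the unselected Sprr2i and Sprr2k were higher in suprabasal-like than in superficial-like cells in 6 of 6 libraries, and Sprr2j-ps in 5 of 6, Low F6 with 0 CPM being the exception. Sprr2k had 4.02 to 11.9 CPM in suprabasal-like and 0.654 to 6.65 CPM in superficial-like cells. Sprr2i had 65.9 ± 49.9 CPM in the Calm4 cluster (SD, n = 6) and 8.98 ± 4.39 in the Tspan1 cluster, and Sprr2j-ps, annotated as a pseudogene, had 18.0 ± 10.2 CPM in suprabasal-like cells and at most 2.21 in superficial-like cells of any library. All of Sprr2i, Sprr2j-ps and Sprr2k were higher in High than in Low libraries in 3 of 3 label pairs over all cells, Sprr2i with 4.65, 4.67 and 1.59 CPM in Low F2, M3 and F6 and 7.81, 27.4 and 4.63 in High, where the groups overlap. In suprabasal-like cells each of the 3 was higher in High in 2 of 3 label pairs, with overlapping groups. The share of all genes higher in 3 of 3 label pairs was not counted. These 3 rows were singled out after their values were seen.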

How the data were processed

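Per the labels' protocols, the libraries were made with the 10x 3′ kit from organoid cells at day 15. Per the submitters' processing notes, the authors used Cell Ranger 6.0.0, Seurat 4 and the build mm10 (GRCm38). The deposited tables hold 1 value per gene and cell as a natural log, ln(1 + UMI / total UMIs × 10000), by their values, and no barcode exceeded 10.0% mitochondrial UMIs. From them whole UMIs were recovered for 100% of values (tolerance 0.001), 8457489 to 48957523 per library. Cells with at least 500 detected genes were kept, with no doublet caller run. Cells were clustered in Seurat 5.3.0 with all Sprr rows removed (reciprocal principal components, 2000 variable genes, 30 components, Louvain resolution 0.5), and clusters were named from marker lists.

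For each gene the mean CPM over cells per library was divided by its TMM factor and tested on log2(value + 1) with limma 3.58.1 in R 4.3.3, using a mean-variance trend, over genes at 1 CPM or more in at least 3 libraries. The main fit held the group alone, so its p-values take no account of the label pairs, and the permutations were unpaired as well. Printed CPM levels are before the TMM factor. Shares were compared over libraries by exact permutation in SciPy 1.17.1, since cells are not replicates. The limma fit, and not the permutation step, was also run on data simulated from the all-cell levels. Intervals and the limit for a count of 0 (3 counts) cover counting error only. Named genes were the 8 members, the other Sprr rows, each member's 3 most alike genes, and, of 4 lists, the genes past the threshold and those with the largest differences. The members and lists were chosen with earlier results of these data known.

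The labels F2, M3 and F6 recur in both groups. Deviations from the group means of same-label libraries correlated at 0.764 (F2), 0.579 (M3) and 0.149 (F6) over 8878 genes, each above 0.1. On this the labels were taken as pairs, from the data and not the labels' text. Low F2 and High F6, with different labels, correlated at 0.172, above the F6 pair, so these values do not favour the pairing of F6. Fits with the replicate block, other scalings, filters, pseudocounts, resolutions and left-out libraries were tried.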

Additional observations from a re-analysis of the deposited data

Results flagged for a closer look

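Barcodes with fewer than 500 detected genes, which no comparison used, had a higher mean Sprr share of their UMIs than the kept cells in 6 of 6 libraries. Their mean summed level of all Sprr rows was 12827, 8311 and 7789 CPM in Low F2, M3 and F6 and 4734, 3233 and 4808 CPM in High, against 6895, 3173, 4483, 3553, 2567 and 2270 CPM in the kept cells of the same libraries. The ratio ranged from 1.26 to 2.62. There were 89 to 738 such barcodes per library. Just inside and just outside the limit the order was mixed: barcodes with 450 to 499 genes had 12684, 7522 and 6939 CPM in Low and 4434, 1635 and 3342 CPM in High, and those with 500 to 549 genes had 14692, 11111, 1471, 5506, 2579 and 2538 CPM. What these barcodes are was not tested.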

How the results depend on the processing

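Sprr1b was higher in High under every alternative run over all cells (15, log2 2.43 to 3.57, adjusted p 0.0148 to 0.284, called in 8) and in basal-like cells (15, log2 2.79 to 3.38, adjusted p 0.00127 to 0.141, called in 12). It was called in 1 of 15 in proliferating-like, 0 of 13 in suprabasal-like and 0 of 15 in superficial-like cells. Beside the left-out libraries given above, the all-cell call was lost with a pseudocount of 0.1 (adjusted p = 0.0598), no filter (0.284) and summed UMIs (0.0658), and the basal-like call with no filter (0.141). The proliferating-like call was gained without High M3 (0.00976).

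With the replicate block limma called 64 genes over all cells, 119 in basal-like and 5 in superficial-like cells, against 19, 32 and 1 without it, and it changed no call of a member (Sprr2f adjusted p = 0.097, Sprr2a3 0.189 over all cells). A pseudocount of 0.1 gave 5, 16, 7 and 0 calls over all, basal-like, proliferating-like and superficial-like cells. No filter gave 0 in all 5 cell sets. Basal-like cells with 1000 or more genes gave 12, and suprabasal-like cells gave 4 with plain CPM and 8 at resolution 1.0. The alternatives chosen after seeing the data gave 9 calls without the Calm4 cluster and 32 without the Tspan1 cluster. Leaving out 1 library gave 6 to 17 over all cells, 6 to 38 in basal-like, 2 to 58 in proliferating-like, 1 to 12 in suprabasal-like and 0 to 1 in superficial-like cells. The cause was not tested.

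Signs turned only for differences that never passed. Sprr1a turned to 0.053 with cells of 1000 or more genes, 0.020 without the 5% deepest cells and 0.245 without the Tspan1 cluster (leaving out 1 library, -0.509 to 0.213). Sprr2a1 turned to -0.066 with plain CPM and -0.106 with summed UMIs (-0.473 to 0.474), Sprr2h to -0.257 without the Calm4 cluster, and Sprr3 ranged from -0.313 to 0.712. In pool shares, in points, Sprr2d turned to 0.921 without the 5% deepest cells and 1.36 with mean CPM (-4.15 to 2.97), and Sprr2a3 ranged from -5.24 to 4.16. In detection, in points, Sprr2a1 turned to -0.063 with cells of 1000 or more genes and -1.50 unthinned (-0.116 to 0.236), Sprr2h to -0.015 unthinned, and Sprr3 to 0.318 with cells of 1000 or more genes (-1.01 to 0.419). Of 431 alternatives to 35 values, 392 kept direction and, for limma values, side of the threshold. Shares were judged by direction alone, since none could pass, and most limma values were not called in the main fit. The only called values, Sprr1b over all cells and in basal-like cells, were called in 8 of 15 and 12 of 15 alternatives. Plain CPM moved the median of all genes from 0.00 to -0.10 over all, 0.00 to -0.16 in basal-like, 0.02 to -0.15 in proliferating-like and 0.11 to -0.10 in suprabasal-like cells, and the gradient's from -0.02 to 0.16. Suprabasal-like cells could not be fitted with 1000 or more genes or at resolution 0.3, where a library had under 50 cells.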

Other observations

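The unnamed cluster led by Ifit3b, an interferon-induced gene, had 336 cells and enough of them for a value in 3 libraries only, Low F2, Low M3 and High F2. Its cells were shallow, at a median of 0.247 of their library's median UMIs, and Tspan1 and Duoxa2 were also among its leading genes. What part the depth had in its levels was not tested. The Sprr2d level of this cluster was 2772, 2775 and 8366 CPM in these libraries, and its Sprr2f level 2000, 1112 and 2421 CPM, above the Il33 cluster of the same libraries for both genes. In the basal-like Tslp cluster Sprr1a averaged 213 ± 95.4 CPM and Sprr2d 399 ± 139 (SD, n = 6), against 30.025 ± 17.5 and 48.2 ± 22.3 CPM in the basal-like Tmem176b cluster, with the Tslp cluster higher in 6 of 6 libraries for both genes. For Sprr2a3 the order was the reverse in means, 137 ± 66.7 in the Tslp and 185 ± 67.8 CPM in the Tmem176b cluster, within their spread. These levels were noticed after the values were seen and carry no test.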
